A study of Mus musculus with 58 samples.

Results

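Gphn, Iqsec3, Lhfpl4, Dag1 and Dmd encode proteins that stand on the receiving side of inhibitory synapses, and their RNA was measured in parvalbumin (PV) interneurons, cells that inhibit others and are inhibited themselves. The 5 genes were taken by name from the 25648 genes of the deposited count table, with earlier results of these data known, and all 5 are in it. Each library is 1 cell, whose cytosol was drawn into a patch pipette in the ventral subiculum, the part of the mouse brain through which the hippocampus sends its output. All animals carried PV-Cre::Ai9, a Cre recombinase under the parvalbumin gene together with the Ai9 fluorescent reporter, so a cell was picked because it had used the parvalbumin gene at some time. The series holds 58 cells, 29 from 4 male and 29 from 3 female animals, and its quality label is Pass for 54 of them (27 per sex) and Fail for 4. By its title the series is about Neurexin-3 and how GABAergic inhibition differs between synapses and sexes. No treatment or mutation distinguishes the groups, which are male cells at postnatal day 35 (P35, 14 Pass cells) and P36 (13), and female cells at P40 (17) and P42 (10).

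Inhibitory synapses hold their GABA-A receptors in place through a scaffold under the membrane. Gephyrin, the product of Gphn, forms that scaffold, IQSEC3 binds gephyrin and activates small ARF GTPases, and LHFPL4 is a membrane protein that ties GABA-A receptors to the adhesion protein neuroligin. Dystroglycan, the product of Dag1, is a cell-surface receptor that binds laminins, agrin and neurexins outside the cell through its sugar chains, and dystrophin, the product of Dmd, couples it to actin inside. In the hippocampus both are known best from inhibitory synapses on the cell bodies of pyramidal neurons, and loss of dystrophin causes Duchenne muscular dystrophy.

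On GRCm38 (GENCODE vM21), Gphn spans chromosome 12 from 78226379 to 78684772 on the plus strand and Dmd spans chromosome X from 82948870 to 85206141, also on the plus strand. Iqsec3 (chromosome 6, 121372933 to 121473678), Lhfpl4 (chromosome 6, 113168090 to 113195384) and Dag1 (chromosome 9, 108204634 to 108263958) lie on the minus strand. The annotated exons of each gene, merged, cover 3749 bp for Gphn, 13577 bp for Iqsec3, 5813 bp for Lhfpl4, 6357 bp for Dag1 and 23801 bp for Dmd. An exon of Gphn overlaps the opposite-strand noncoding gene Gm48226 by 147 bp, and since no source used here gives the strand setting of the counting, reads there cannot be assigned to either. No exon of the other 4 genes overlaps an exon of another annotated gene.

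The sequences upstream of 3 of the genes are shown because Dag1 and Lhfpl4 were the pair whose levels went together most closely across cells, and because 2 distant starts of Dmd are annotated, which counts per gene do not separate. Each is the 250 bases before an annotated RefSeq start on GRCm38.p6, 5′ to 3′ on the gene's strand. The windows are chr6:113195385-113195634 (minus) for Lhfpl4, chr9:108263959-108264208 (minus) for Dag1, chrX:82948620-82948869 (plus) for the upstream start of Dmd and chrX:85048045-85048294 (plus) for a downstream start. A further annotated start of Dag1 (chr9:108263816-108264065, 74.8% GC with 36 CpG dinucleotides) overlaps the Dag1 window, holds the same number of GC boxes (3) and is not printed. Capitals mark GC boxes (GGGCGG on either strand) and the TATA motif (TATAAA on either strand), which do not overlap each other.
Lhfpl4: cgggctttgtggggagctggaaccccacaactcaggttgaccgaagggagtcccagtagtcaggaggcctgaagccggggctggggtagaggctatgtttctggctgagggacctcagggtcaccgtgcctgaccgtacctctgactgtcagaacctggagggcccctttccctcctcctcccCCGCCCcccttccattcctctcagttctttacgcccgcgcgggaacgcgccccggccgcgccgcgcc
Dag1: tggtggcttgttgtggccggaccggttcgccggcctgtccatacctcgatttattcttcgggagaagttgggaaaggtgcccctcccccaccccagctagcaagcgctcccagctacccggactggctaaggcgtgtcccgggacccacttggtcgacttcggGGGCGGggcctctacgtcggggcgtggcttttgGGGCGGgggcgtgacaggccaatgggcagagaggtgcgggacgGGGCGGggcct
Dmd, upstream start: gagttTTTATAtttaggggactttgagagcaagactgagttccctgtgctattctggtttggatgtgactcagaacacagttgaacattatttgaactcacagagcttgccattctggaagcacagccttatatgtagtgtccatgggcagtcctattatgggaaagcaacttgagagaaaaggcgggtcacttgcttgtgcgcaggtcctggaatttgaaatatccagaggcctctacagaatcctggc
Dmd, downstream start: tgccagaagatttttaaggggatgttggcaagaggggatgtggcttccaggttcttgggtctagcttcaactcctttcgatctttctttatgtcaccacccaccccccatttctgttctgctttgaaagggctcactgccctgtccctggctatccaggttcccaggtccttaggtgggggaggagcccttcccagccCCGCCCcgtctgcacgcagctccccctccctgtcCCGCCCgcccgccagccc
The Dag1 window holds 3 GC boxes, the Lhfpl4 window 1, the upstream Dmd window 0 and the downstream one 2. Among all 32544 windows of this length, 33.0% held a GC box and 12.3% the TATA motif, which of these 4 windows only the upstream Dmd window contains. That window also has the lowest GC content of the 4, 45.2% with 2 CpG dinucleotides, against 60.0% with 7 at the downstream start. The Lhfpl4 and Dag1 windows have 66.4% and 67.6% GC, above the median of 52.4% over all windows. This is not particular to the pair, since the windows of Gphn (77.2%) and Iqsec3 (64.8%), not printed, are above it too. Each of those holds 1 GC box. These are matches of letters and say nothing of use in PV cells.

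Depth and identity of the cells came first. Pass cells held 2.05 to 52.3 M counts (median 11.5 M). Levels per cell are CPM, the usual scaling of a gene's count to an equal total in every cell. Counts are amplified reads, with no molecular identifiers named in the labels. Intervals on shares of cells cover counting error only and treat cells as independent, which cells of the same animal may not be. Of the PV interneuron markers, Gad1 and Gad2 (GABA synthesis) and Kcnc1 (a fast potassium channel) reached 10 CPM in 54 of 54 Pass cells, Pvalb in 47 and Slc32a1 (the vesicular GABA transporter) in 38. Slc17a7, the glutamate transporter of excitatory neurons, which PV cells should lack, had at least 1 count in all 54 cells and reached 10 CPM in 26. A count of 1 therefore does not separate cells that use a gene from cells that do not at this depth. The shares at 10 CPM are given beside it, but with Slc17a7 at that level in 26 cells they do not fully separate them either. Of markers of other interneurons, Cck reached 10 CPM in 48 cells, Sst in 22, Npy in 14, Lamp5 in 13, Vip in 10, Calb2 in 7 and Reln in 5. Their sum was 7195 CPM in male cell 5, singled out after its values were seen, the highest of all cells and the only one above 5000 CPM. Summed levels above 5000 CPM of glial, vascular or blood markers were found in 8 libraries, for oligodendrocytes (4 cells), astrocytes (1), microglia (1) or blood (2).

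Gphn was the highest and steadiest of the 5 genes. Its level in the 54 Pass cells ran from 4.62 CPM in female cell 13 to 173 CPM in male cell 2, with a median of 85.6 and a mean of 83.4 ± 42.1 (SD). Cells are numbered here in accession order within each sex, and such a number only names a cell. In the male P35 cells Gphn had a lowest, median and highest level of 18.0, 78.4 and 173 CPM, and in the male P36 cells of 19.2, 79.6 and 106 CPM. For the female P40 cells these were 52.1, 106 and 169 CPM, and for the female P42 cells 4.62, 62.1 and 127 CPM. The 4 groups overlapped widely, and the P40 females were the group in which no cell fell below 50 CPM. Gphn reached 10 CPM in 53 of 54 cells (98.1%, exact 95% binomial interval 90.1 to 99.95%).

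Iqsec3, whose product binds gephyrin, came next with a median of 70.3 CPM and a mean of 69.3 ± 43.6. In the male P35 cells it had a lowest, median and highest level of 3.42, 60.2 and 141 CPM, and in the male P36 cells of 2.10, 56.2 and 118 CPM. The female P40 cells held 18.3, 82.3 and 221 CPM, and the female P42 cells 7.81, 63.2 and 129 CPM. The highest value belonged to female cell 3, which is also the deepest library of the series. Iqsec3 reached 10 CPM in 50 of 54 cells (92.6%, exact interval 82.1 to 97.9%), and the 4 cells below it lay between 2.10 and 7.81 CPM.

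Lhfpl4, the receptor-linking membrane protein, was lower and more uneven, with a median of 26.0 CPM and a mean of 36.7 ± 32.6. Its lowest, median and highest levels were 0.517, 15.2 and 134 CPM in the male P35 cells and 0.764, 33.6 and 89.6 CPM in the male P36 cells. They were 2.31, 35.4 and 104 CPM in the female P40 cells and 4.97, 30.3 and 71.2 CPM in the female P42 cells. Male cell 22 alone held 56.9% of the Lhfpl4 counts of the male P35 pool. All 4 groups held cells on both sides of 10 CPM, which 40 of the 54 cells reached, and 3 cells, all male, were under 1 CPM.

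Dag1, the dystroglycan gene, had a median of 26.5 CPM, close to that of Lhfpl4, and a mean of 32.9 ± 31.2. Its lowest, median and highest levels were 0.0713, 32.2 and 79.8 CPM in the male P35 cells and 0.346, 30.3 and 70.3 CPM in the male P36 cells. The female P40 cells held 0.415, 13.9 and 118 CPM, and the female P42 cells 0.787, 37.4 and 124 CPM. The median of the P40 females was thus the lowest of the 4 although their highest cell reached 118 CPM. Dag1 reached 10 CPM in 37 cells and was under 1 CPM in 8, and these 8 were spread over all 4 groups.

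Dmd, the dystrophin gene, was the lowest and the most variable, with a median of 13.9 CPM and a mean of 20.3 ± 22.6. Its lowest, median and highest levels were 0.153, 18.99 and 87.8 CPM in the male P35 cells and 0, 7.17 and 44.6 CPM in the male P36 cells. They were 0.134, 4.98 and 67.1 CPM in the female P40 cells and 0.264, 19.8 and 72.2 CPM in the female P42 cells. The younger male and the older female group thus had the higher medians, and each group held cells near 0 and cells above 40 CPM. Dmd reached 10 CPM in 29 of 54 cells and was under 1 CPM in 14. For scale, the excitatory marker Slc17a7 reached the same level in 26 cells. Whether those are the same cells was not tested. The highest Dmd level belonged to male cell 5, the cell with most RNA of other interneuron markers, and without it the highest was 72.2 CPM and the median 12.8. No read of Dmd was counted in male cell 27, where 3 counts would have been 0.374 CPM.

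**Figure D1:**
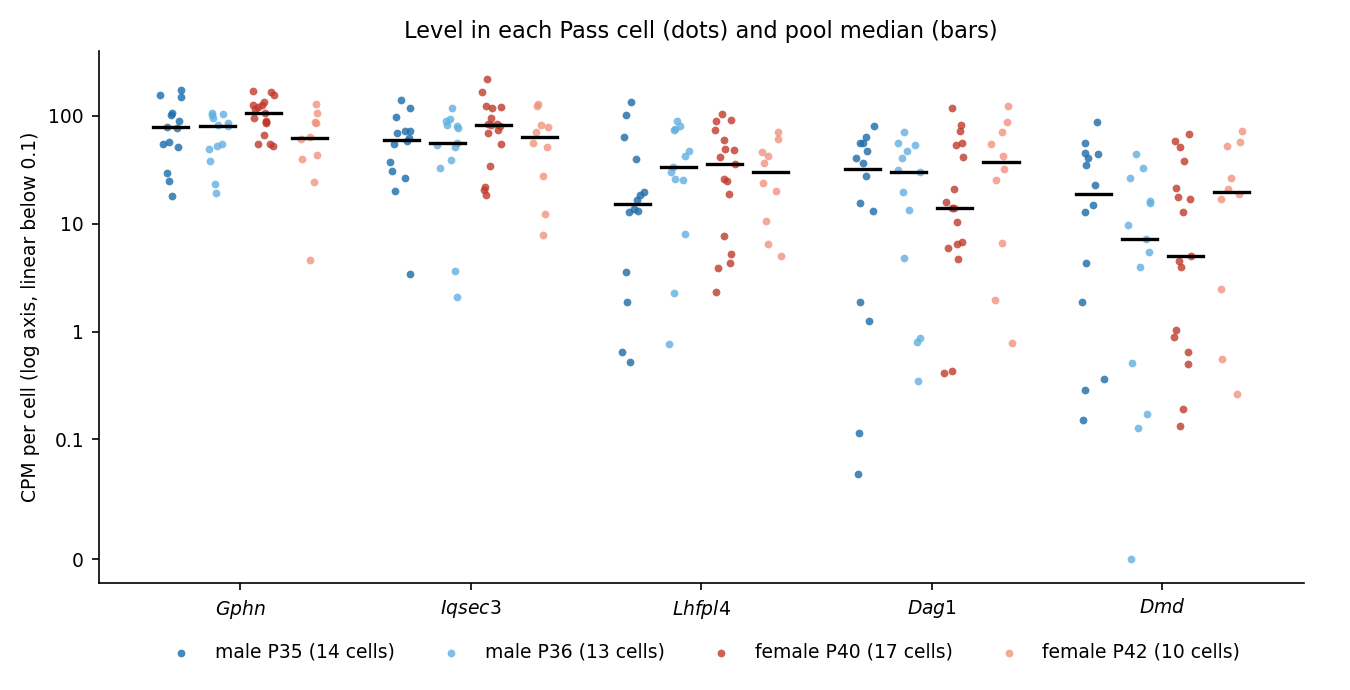
Level of each gene in CPM (log axis, linear below 0.1) in each of the 54 Pass cells, with dots coloured by sex and age and bars at the median of each group. Gphn lies in a narrow band with 1 cell under 10 CPM, whereas the Dmd dots of each group run from under 1 CPM to above 40 CPM.

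The spread between cells was larger the lower the mean level. The coefficient of variation (CV, the SD as a percentage of the mean) was 50.5% for Gphn, 62.9% for Iqsec3, 88.9% for Lhfpl4, 94.6% for Dag1 and 111% for Dmd. Among the 8945 genes with a median of at least 5 CPM the median CV was 71.9%, so Gphn and Iqsec3 varied less than the typical gene and the other 3 more. In that set the percentile rank of the CV was 23.9 for Gphn, 39.3 for Iqsec3, 68.4 for Lhfpl4, 73.8 for Dag1 and 85.7 for Dmd. The upper quartile exceeded the lower one 2.01-fold for Gphn, 2.53-fold for Iqsec3, 6.55-fold for Lhfpl4, 8.91-fold for Dag1 and 37.1-fold for Dmd. Most of this spread lay within groups of the same sex and age. Differences between the 4 groups took 15.1% of the variance of log2(CPM + 1) for Gphn, 5.13% for Iqsec3, 4.31% for Lhfpl4, 1.31% for Dag1 and 4.22% for Dmd, beside a median of 5.24% over genes.

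Nearly every cell had at least 1 count of each gene. Gphn, Iqsec3, Lhfpl4 and Dag1 had a count in 54 of 54 cells (exact 95% interval 93.4 to 100%) and Dmd in 53. After each cell was thinned to 2.05 M counts, the smallest total, Gphn, Iqsec3 and Lhfpl4 still had a count in 54 cells, while Dag1 and Dmd had one in 50 each. The number of cells at 10 CPM did not move with thinning for any of the 5 genes. All 5 genes were at that level in 14 cells, 4 of them in 25 cells, 3 in 9 cells and 2 in 6 cells. No cell had fewer than 2 at that level, and cells with all 5 occurred in each of the 4 groups.

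**Figure D2:**
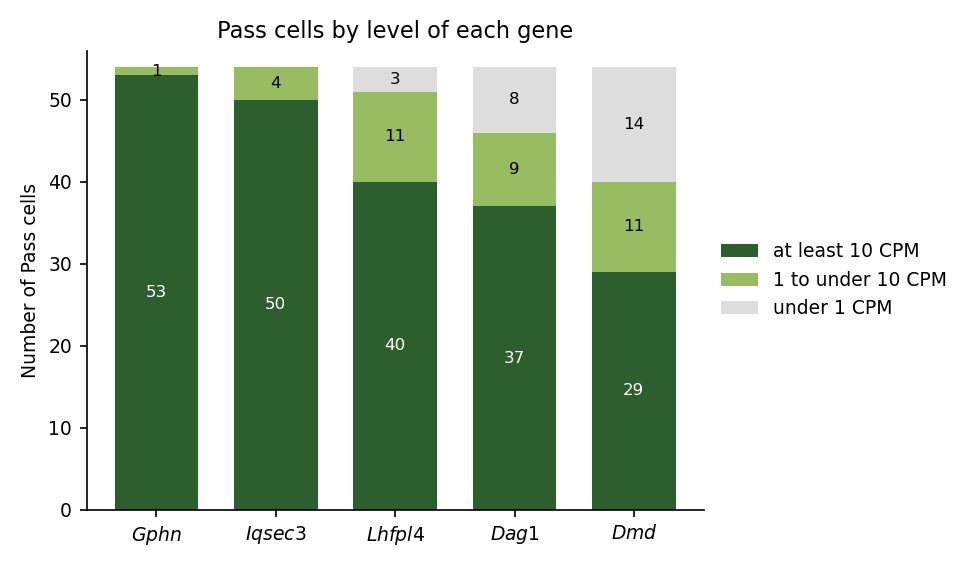
Number of the 54 Pass cells in which each gene was at 10 CPM or more, from 1 to under 10 CPM, or under 1 CPM. The top class shrinks from 53 cells for Gphn to 29 for Dmd, and the class under 1 CPM grows from 0 to 14 cells.

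CPM is not corrected for length, so levels were compared between genes per kilobase of merged exons. Gphn stood apart with a median of 22.8 CPM per kilobase. Iqsec3 (5.18), Lhfpl4 (4.48) and Dag1 (4.17 CPM per kilobase) formed a middle group, and Dmd was lowest at 0.584. Cell by cell, Gphn was above Iqsec3 in 50 of 54 cells, above Lhfpl4 in 48, above Dag1 in 52 and above Dmd in 53. By merged exons the middle 3 had no consistent order. Iqsec3 was above Dag1 in 27 of 54 cells and above Lhfpl4 in 25, and Lhfpl4 was above Dag1 in 28. Dmd was below Iqsec3 in 48 cells, below Lhfpl4 in 46 and below Dag1 in 45. With the longest annotated transcript as the length the order of the 5 medians was the same, from 24.0 CPM per kilobase for Gphn to 0.932 for Dmd. Iqsec3 then had 8.72, further above Lhfpl4 (5.47) and Dag1 (4.69). In CPM, with no length, Iqsec3 was above Dag1 in 41 cells and above Lhfpl4 in 37. The place of Iqsec3 in the middle group thus depends on the length taken. A single length overstates that of the shorter Dmd products, which the counts do not separate.

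The partners of these proteins were taken from lists of inhibitory postsynaptic, dystrophin complex, receptor and enzyme genes. Of the 20 other inhibitory postsynaptic genes in the table, 16 had a median of at least 10 CPM. For scale, 8945 of all 25648 genes had a median of at least 5 CPM. The share of all genes at 10 CPM was not counted, so such counts describe the lists only. Nlgn2, the neuroligin of inhibitory synapses, had a median of 1.99 CPM per kilobase, below Gphn, Iqsec3, Lhfpl4 and Dag1 and above Dmd. The small proteins Gabarapl1 and Gabarap, both of receptor traffic and autophagy, had 134 and 86.2 CPM per kilobase, above all 5 members. Gphn also makes the molybdenum cofactor, and of that pathway Mocs2 had a median of 13.7 CPM per kilobase, Mocs3 5.55 and Suox, sulfite oxidase, 0.366.

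The dystrophin complex was carried unevenly. Of the 16 genes of this list in the table, 8 had a median of at least 10 CPM. The sarcoglycan Sgcb was highest with 25.6 CPM per kilobase, followed by the dystrobrevins Dtnb (6.76) and Dtna (6.42), which bind dystrophin, and all 3 were above Dmd. Utrn, which encodes the dystrophin relative utrophin, had 1.93 CPM per kilobase. Of 8 genes for extracellular ligands of dystroglycan, Nrxn3 had the highest median per kilobase (15.3), followed by Agrn (4.08) and Nrxn2 (0.736), while the laminin gene Lama2 had a median of 0. Of 17 genes listed for the building of sugar chains on dystroglycan, 15 had a median of at least 10 CPM. Among them B4gat1 reached 107 CPM per kilobase, Dpm2 45.8 and Pomgnt2 30.5.

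Relatives of the members gave a further scale. Iqsec1 and Iqsec2, the relatives of Iqsec3 known from excitatory synapses, had medians of 8.90 and 4.82 CPM per kilobase, on either side of Iqsec3. Lhfpl5, known from the hair cells of the ear, had 16.7 CPM per kilobase and so a higher median than Lhfpl4, while Lhfpl3 and Lhfp had 0.379 and 0.193. Dlg4, which encodes the excitatory scaffold protein PSD-95, had a median of 0.390 CPM, or 0.029 per kilobase, and reached 10 CPM in 6 cells. Other excitatory scaffold genes were not low, since Dlgap1 and Dlgap2 had 19.7 and 18.6 CPM per kilobase.

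**Figure D3:**
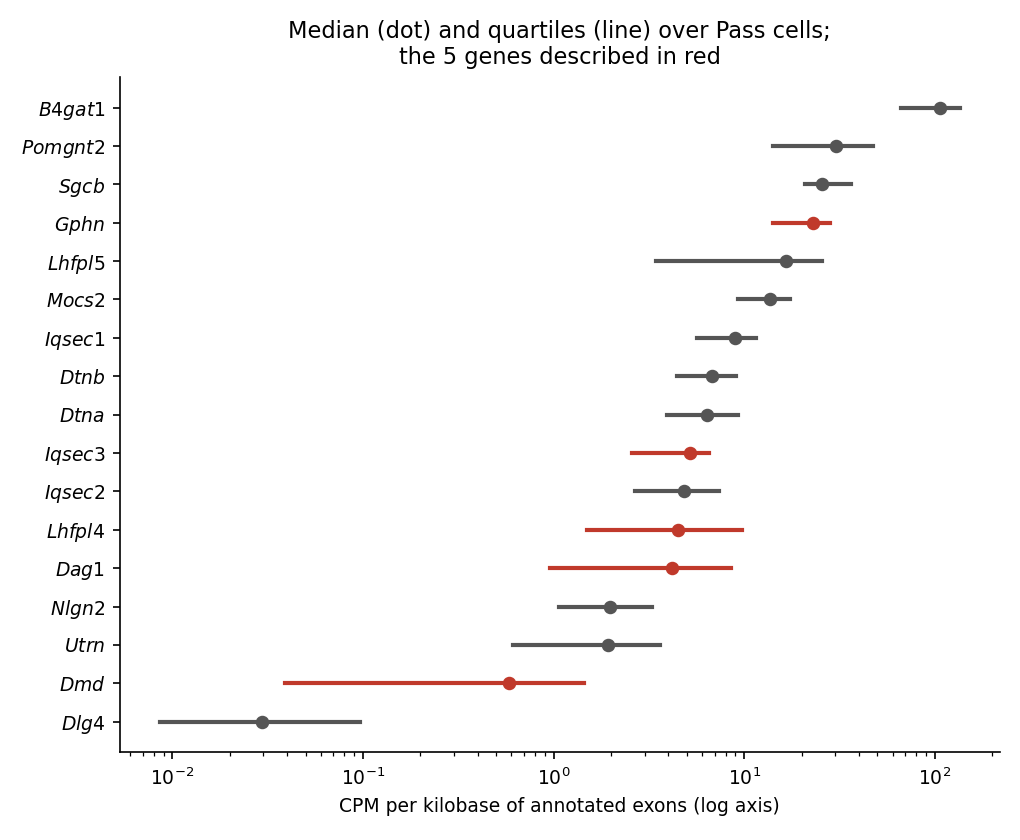
Median (dot) and quartiles (line) over the 54 Pass cells of the level per kilobase of merged exons (log axis), for the 5 genes in red and 12 partner or related genes in grey. Gphn at 22.8 lies near Sgcb, the middle 3 lie between 4 and 6, and Dmd at 0.584 lies below Utrn.

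Whether the genes differed between female and male cells was asked on sums of cells, because no label says which animal a cell came from and cells of 1 animal are not replicates. Summing the Pass cells of each sex and age gave 4 pools, and these have no animal in common unless an animal was used on more than 1 day. The p-values measure the spread between these pools, with 2 per sex, and sex and age cannot be told apart because both female pools were older. Pool levels are CPM on library sizes scaled by TMM (trimmed mean of M-values).

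None of the 5 genes passed the test. Of 14933 genes tested, 0.0134% were called (2 genes) by the quasi-likelihood test of edgeR after Benjamini-Hochberg adjustment, and 0 of the 5 members were. All 5 had an unadjusted p above 0.2, beside 823 genes with one under 0.05. DESeq2, which called 1.25% of the genes, called 0 of the 5 as well. In simulated pools of this design with 14933 genes, edgeR recovered 12% of genes changed 2-fold and 60% of those changed 4-fold, so a change of 2-fold would mostly have been missed.

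Dag1 was the member whose pools did not overlap, at 24.3 and 28.8 CPM in the male P35 and P36 pools and 31.7 and 44.2 CPM in the female P40 and P42 pools. Its log2 difference (female minus male) was 0.51 ± 0.37 (standard error; edgeR adjusted p = 0.981, range over the alternatives 0.742 to 0.99969). Pools that did not overlap in either direction occurred in 33.9% of all genes, so 1 of 5 is no more than this background. The medians over cells did not follow the same order, since the P40 females had the lowest median. A few cells held much of the pool sums, and female cell 25 gave 37.0% of the Dag1 counts of the P40 pool.

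Gphn had 87.7 and 75.4 CPM in the male P35 and P36 pools, and 116 and 61.3 CPM in the female P40 and P42 pools, which makes the log2 difference 0.12 ± 0.33 (edgeR adjusted p = 0.999, range 0.587 to 0.99969). The 2 female pools enclosed both male pools, and without the P40 pool the difference was -0.40. Iqsec3 was at 68.7 and 58.6 CPM against 116 and 56.7 CPM, a difference of 0.44 ± 0.36 (edgeR adjusted p = 0.984, range 0.390 to 0.99969). Female cell 3 gave 43.0% of the Iqsec3 counts of the P40 pool and 30.4% of its Gphn counts. Without that cell the differences were 0.16 for Iqsec3 and 0.026 for Gphn, and without the whole P40 pool that of Iqsec3 was -0.16.

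The male pools held 37.3 and 42.4 CPM of Lhfpl4 and the female pools 45.7 and 33.2 CPM, so the female pools lay on both sides of the male ones. Its log2 difference was -0.01 ± 0.34 (edgeR adjusted p = 0.99995), and 5 of 13 alternatives gave the opposite sign, up to 0.35 with limma on mean log values per cell. Dmd was at 23.1 and 11.2 CPM against 14.6 and 25.8 CPM, a difference of 0.24 ± 0.57 (edgeR adjusted p = 0.999). The younger male and the older female pool were the higher ones. The difference of Dmd ran from -0.22 without the female P42 pool to 0.85 without the male P35 pool, and it was -0.19 without the male P36 pool. Without male cell 5, which gave 21.8% of the Dmd counts of the male P35 pool, it was 0.41.

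**Figure D4:**
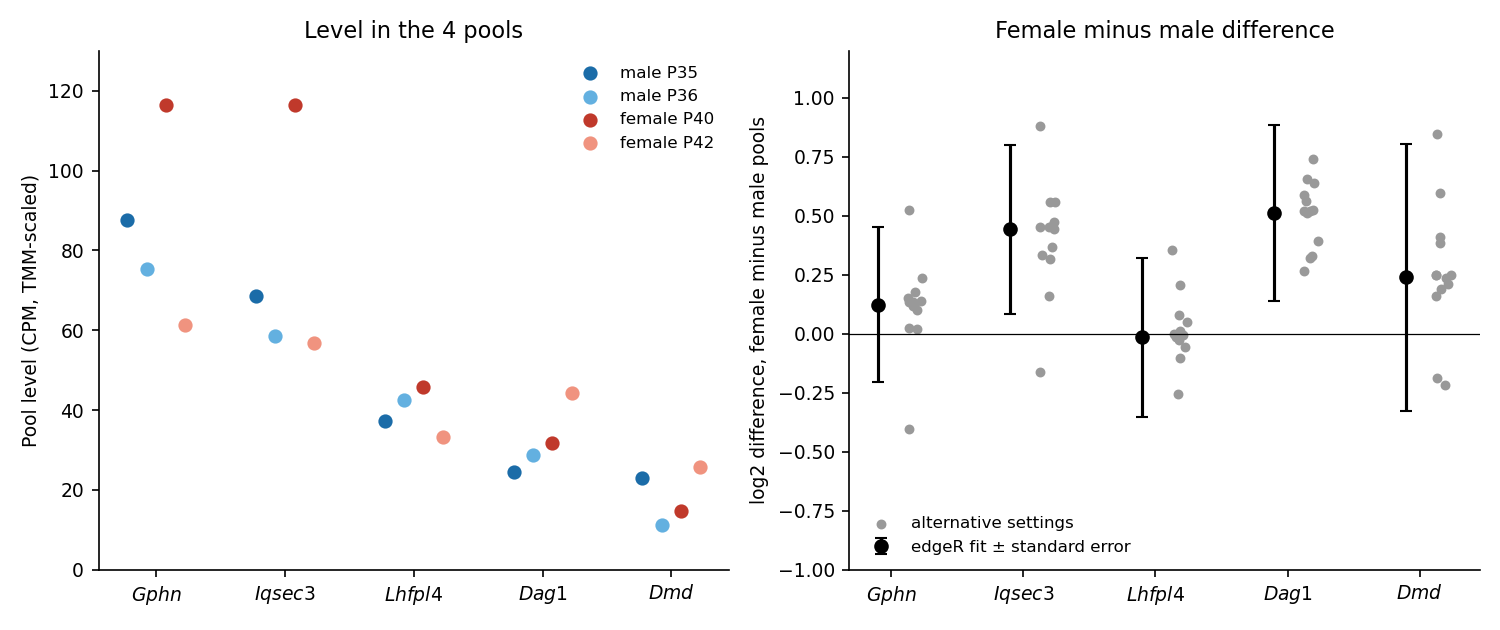
Left, TMM-scaled CPM of each gene in the 4 pools. Right, the log2 difference (female minus male) with its standard error in black and under 13 alternative settings in grey, in which the values for Dag1 stay between 0.26 and 0.74 and those of the other 4 genes fall on both sides of 0.

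No gene of the related lists passed the test either. Of the inhibitory postsynaptic list 0 of 19 tested genes were called, with a median log2 difference of -0.17, beside 0.0044 over all genes tested. Its gene with the smallest p was Neto2, an auxiliary subunit of kainate receptors, with 0.84 ± 0.27 (edgeR adjusted p = 0.878). Of the dystrophin complex 0 of 14 were called (median -0.22) and of dystroglycan ligands 0 of 4 (-0.07). For the genes listed for sugar chains on dystroglycan this was 0 of 17 (0.16), and for the molybdenum cofactor genes 0 of 5 (-0.01). Of the GABA-A subunits 0 of 13 were called (median 0.04), and Gabra2 had the smallest p, with -1.16 ± 0.30 (edgeR adjusted p = 0.878). Of the excitatory scaffold list 0 of 16 were called (median -0.29) and of the relatives of Lhfpl4 0 of 4 (-0.11).

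Across single cells, the 5 genes mostly varied without regard to each other. The values are Spearman's rho over the 54 Pass cells, which share animals, pools and depth range, and they are descriptions. Among 10 pairs of members the strongest was Dag1 with Lhfpl4, at 0.42. Within the male pools it was 0.59 (P35) and 0.15 (P36), and within the female pools 0.53 (P40) and 0.55 (P42). It was 0.39 after thinning and 0.45 when the 8 cells with high marker sums were left out. Among 8944 genes compared, Dag1 ranked 17 in likeness to Lhfpl4, and Lhfpl4 ranked 35 in likeness to Dag1. In 31 cells both reached 10 CPM, in 8 neither did, in 9 Lhfpl4 alone did and in 6 Dag1 alone did. Male cells 6 and 20, singled out after their values were seen, had the lowest levels of both genes, at 0.641 and 0.517 CPM of Lhfpl4 and 0.0713 and 0.115 CPM of Dag1. The same cells held 150 and 155 CPM of Gphn and 23.02 and 44.2 CPM of Dmd, well above the medians of those genes.

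Gphn with Iqsec3 was the next pair at 0.29, ranking 128 of 8944 genes in likeness to Gphn. In the female pools rho was 0.57 and 0.48, and in the male pools it was -0.05 and 0.07. The difference between the sexes was not tested. Dag1 and Dmd, whose products bind each other, had a rho of 0.07 (-0.32, 0.18, 0.22 and 0.42 in the 4 pools). In 20 cells both reached 10 CPM, in 17 Dag1 alone did, in 9 Dmd alone did and in 8 neither did. The other 7 pairs lay between -0.18 and 0.07. For scale, 5% of all genes had a rho with Dag1 above 0.27 and 5% a rho below -0.22.

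**Figure D5:**
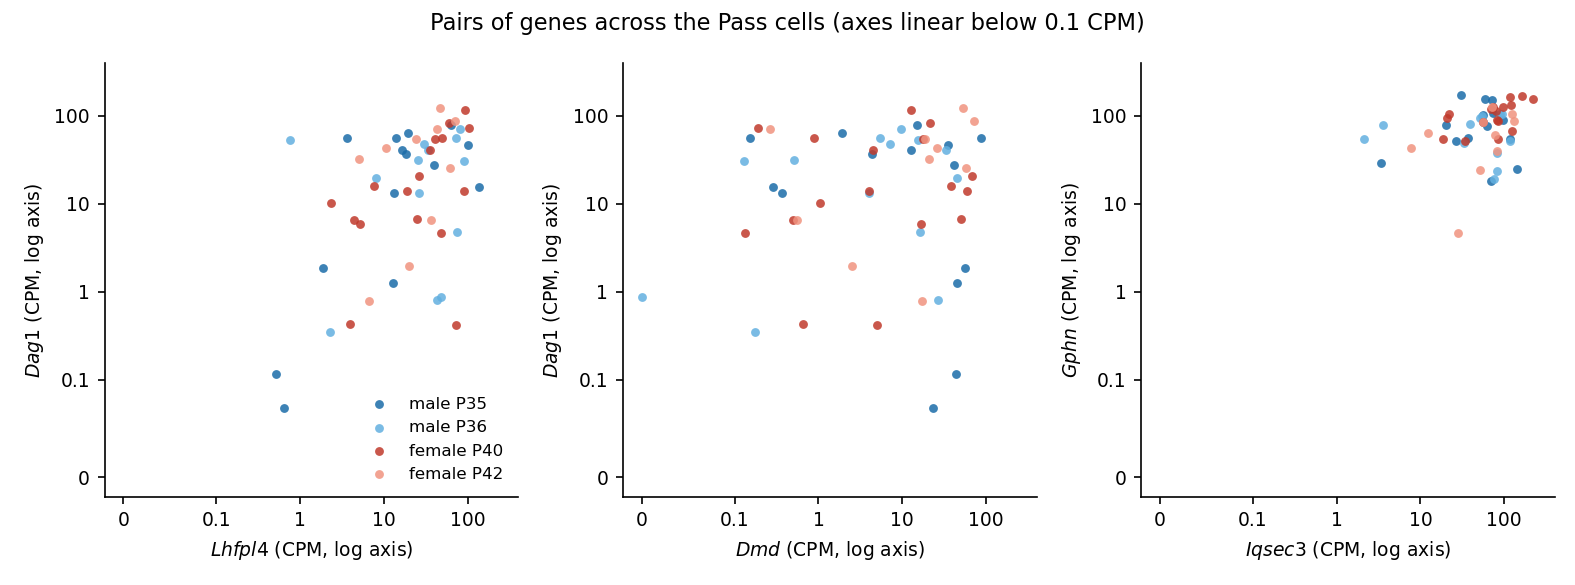
CPM of 3 pairs of genes in each of the 54 Pass cells (log axes, linear below 0.1), coloured by sex and age. The lowest values of Dag1 lie in 2 male cells that are also lowest in Lhfpl4 (rho 0.42), Dag1 and Dmd fill the plane (0.07), and the values of Gphn and Iqsec3 lie mostly in 1 cluster at the upper right (0.29).

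Relations to the partners were weak. Over 45 pairs of a member with a partner or reference gene rho lay between -0.28 and 0.39, and 33 of them were under 0.2 in size. The highest was Iqsec3 with Utrn at 0.39. Dmd with Nlgn2 had 0.30, and Lhfpl4 with Nlgn2, the adhesion protein to which it ties the receptor, had 0.06. Dmd with Dtna, its binding partner in the complex, had the lowest value, -0.28.

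The genes most like each member were found among those with a median of at least 5 CPM. For Gphn they were Arhgef12 (0.49), Frmpd3 (0.48) and Pitpnb (0.46), and for Iqsec3 Vps33b (0.50), Hivep2 (0.48) and Nrd1 (0.48). Lhfpl4 was most like Ankrd13c (0.53), Mphosph10 (0.51) and Tspan5 (0.47). Dag1 was most like Tmem30a, a subunit of lipid flippases (0.52), App, the amyloid precursor (0.51), and Syt11, a synaptotagmin (0.49). Dmd was most like Mcf2l (0.56), Erc2, a protein of the presynaptic active zone (0.51), and Slc45a4 (0.48). Each is the top of 8944 ranked genes for that member, a choice made on these same cells.

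Of all relations to marker sums, that of Dmd to the PV markers was the largest in size. Its rho with the summed level of the 6 PV interneuron markers was -0.36 (-0.57, -0.49, -0.24 and -0.05 in the 4 pools), and with the 6 excitatory markers it was 0.28. The PV sum had a median of 4607 CPM, of which Gad1, at a median of 3560 CPM, was most, while Pvalb had 86.9 CPM. These values therefore describe mainly Gad1. Dmd was set beside further markers. Its rho with the 7 markers of other interneurons was 0.14, and 0.09 without male cell 5, where that with the PV markers was -0.33. The summed PV markers ranged from 2357 to 7209 CPM in the male P35 cells, 1734 to 7408 in the male P36 cells, 2429 to 7572 in the female P40 cells and 3365 to 5764 in the female P42 cells, with none of the 6 at 0 in any cell. The summed excitatory markers had a median of 36.0 CPM and ran from 0.609 to 980 CPM. Dag1 had a rho of 0.29 with the PV markers. Their part in the levels of Dmd and Dag1 was not tested.

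Dystroglycan and dystrophin are also made by glia and by cells of blood vessels, so those markers were set beside them. The 35 values of rho between the 5 genes and the summed markers of oligodendrocytes, their precursors, astrocytes, microglia, endothelium, mural cells and blood lay between -0.26 and 0.15. Dag1 had -0.26 with oligodendrocyte and 0.0042 with astrocyte markers, and when the 8 cells with high marker sums were left out these were -0.12 and 0.09. Dmd had 0.15 with astrocyte and 0.13 with endothelial markers, and 0.09 and 0.07 without those cells. Markers of vessels were often at 0: each of the 6 endothelial markers was at 0 in 14 (Itm2a) to 45 (Cldn5) of 54 cells, and each of the 6 mural markers in 16 (Tagln) to 54 (Kcnj8). Glial markers were present more widely. Of the 7 astrocyte markers Aldoc reached 10 CPM in 54 cells, S100b in 36 and Slc1a3 in 29, while Aqp4 was at 0 in 17. Of the 8 oligodendrocyte markers Mbp and Cnp reached 10 CPM in 54 cells each and Mog was at 0 in 24. Of the 7 microglial markers each reached 10 CPM in 11 (Tmem119) to 45 (Csf1r) cells. The part of these cells' RNA in the levels of the 5 genes was not tested. The summed endothelial markers had a median of 1.24 CPM (highest 263) and the summed astrocyte markers one of 740 CPM (83.8 to 5059), of which Aldoc, at a median of 667 CPM, was most. When the 8 cells with high marker sums were left out, the medians were 34.4 CPM for Dag1 and 11.3 CPM for Dmd.

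Membrane values recorded from the cells (resting potential, resistance and capacitance, given without units) were each available for 49 Pass cells, and all 3 for 47. Their rho with the 5 genes lay between -0.24 and 0.24 for the resting potential, between -0.18 and 0.10 for the resistance and between -0.13 and 0.23 for the capacitance. The highest was Dag1 with the resting potential at 0.24, and it was 0.20, 0.30, 0.07 and 0.89 in the 4 pools, the last over 7 cells. Total counts had a rho of -0.14 to 0.13 with the 5 genes.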

How the data were processed

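Libraries were prepared from the cytosol of single PV cells with Nextera XT reagents, per the labels. The whole-number counts per gene in the deposited table are raw. The authors used STAR, edgeR and the build GRCm38, per the submitters' processing notes. Their versions, the counting tool, annotation and strand setting were not stated in any source used here. The deposited normalized values are a signal: each is the count times 1 factor per cell (0.866 to 1.32), used here as an alternative only.

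Cells were grouped by the labelled sex and age. The 54 Pass cells were summed into 4 pools of 123 to 229 M counts. Genes with a count in at least 10 cells that passed filterByExpr (14933) were tested with edgeR 4.0.16 (R 4.3.3), two-sided, adjusted p under 0.05. DESeq2 1.42.0, limma 3.58.1, other filters, thinning and leaving out pools or cells were alternatives. The fit was tested on simulated data. No 2 cells had identical counts (0 pairs).

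The members and gene lists were chosen with earlier results of these data known. Named genes are the members, 9 set partners, of each list the 3 highest per kilobase and the 2 of smallest p (not all of these are printed), and the 3 genes most like each member. Symbols were matched to lengths in GENCODE vM21 through RefSeq synonyms. Some results are left out of the text, though all fits and counts include the genes behind them.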

Additional observations from a re-analysis of the deposited data

Results flagged for a closer look

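The 4 cells with the quality label Fail were used in no comparison, and each of the 5 genes was found in them above the level that 3 counts allow. The highest level among the Fail cells was 122 CPM for Gphn, 67.1 CPM for Iqsec3, 82.5 CPM for Lhfpl4, 39.5 CPM for Dag1 and 30.2 CPM for Dmd. The 2 male Fail cells held 122 and 87.2 CPM of Gphn and the 2 female ones 69.7 and 46.5 CPM, all within the range of the Pass cells. Dmd had 0 counts in male cell 3 and in female cell 10, where 3 counts would have been 3.59 and 0.591 CPM. The Fail cells held 0.836, 0.596, 0.545 and 5.08 M counts, so 3 of them were shallower than every Pass cell.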

How the results depend on the processing

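No paired analysis was possible because replicate numbers only name cells in accession order and no label names the animal of a cell. None of the 5 genes was called under any of the 13 alternatives. The number of genes called among all tested was 2, against 186 with DESeq2, 111 with no filter on low counts (20302 genes tested) and 0 to 21 when 1 pool was left out (21 without the female P40 pool, where edgeR tested 15017 genes; 0 without the male P36 pool, with 445 genes at an unadjusted p under 0.05). Leaving out 1 pool gave log2 differences of 0.26 to 0.74 for Dag1, -0.22 to 0.85 for Dmd, -0.40 to 0.52 for Gphn, -0.16 to 0.88 for Iqsec3 and -0.26 to 0.21 for Lhfpl4, and the cause was not tested. Lhfpl4 also changed sign with limma (0.35), with thinned cells (0.011) and when the 8 cells with high marker sums were left out (0.051). Leaving out those cells, leaving out female cell 3 or male cell 5, and the longest transcript as length were chosen after seeing the data. Under 5 alternatives each, the levels over cells ran from 62.8 to 85.8 CPM for Gphn and from 63.2 to 71.8 CPM for Iqsec3. They ran from 19.3 to 36.7 CPM for Lhfpl4, 18.7 to 34.4 CPM for Dag1 and 9.56 to 20.3 CPM for Dmd. All lay within 1 SD over cells of the median, a wide limit that 1 alternative, the mean over cells, cannot exceed. The share of cells with Dag1 was 100% at 1 count, 92.6% at 5 counts, 85.2% at 1 CPM and 92.6% with thinned cells. For Dmd it was 98.1% at 1 count, 85.2% at 5 counts, 74.1% at 1 CPM and 100% when those 8 cells were left out. With 2 pools per sex, moderate differences are beyond this design, and shares at 1 count depend on depth.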
